A study of Caenorhabditis elegans with 23 samples.

Results

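The C-type lectin genes of Caenorhabditis elegans were measured in mRNA and small RNA of whole worms from 4 groups. Members were all genes whose symbol starts with clec-, which gave 240 of the 46904 gene IDs in each count table. C-type lectin domains fold around a pair of loops that in many animal proteins bind calcium and sugars, and most worm clec products are predicted to be secreted or membrane proteins. The family is unusually large in nematodes, and many of its genes change expression when worms meet pathogenic bacteria, often under the p38 MAP kinase PMK-1 in the intestine. Worms also make antisense small RNAs on the transcripts of many genes, which Argonaute proteins carry and which can pass between generations. The study's title asks about such inheritance apart from the nucleus.

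The groups were MY16_Star, MY16, N2_Star and N2, with 3 libraries each, except that N2_Star had 2 small RNA libraries. MY16 is a wild isolate and N2 the standard laboratory strain. The labels do not explain what Star marks, so each Star group is called by its label. All worms were 1-day adults grown at 20 °C with E. coli OP-50 as food, and RNA came from whole animals in TRIzol. The design text calls the replicates biological without saying how they were kept apart, so p-values measure only the spread between these libraries. The same text names MY16_Star as the group short of a small RNA library, but the samples listed, and the columns of the small RNA table, are 3 for MY16_Star and 2 for N2_Star, and these were followed here. In whole worms, fewer cells of a type and less RNA per cell cannot be told apart.

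The mRNA libraries held 9362590 to 23150198 counts in genes, and the small RNA libraries 1778321 to 19563562. Levels are given as CPM, each count divided by its library's TMM-scaled gene counts and multiplied by 1000000. A library with 0 counts of a gene can still hide up to 3 counts, which is 0.127 to 0.311 CPM for mRNA and 0.134 to 1.95 CPM for small RNA. Reads from MY16 worms, too, were aligned to the N2 genome, where a gene whose MY16 copy is absent or much changed loses reads whatever its RNA level. Markers of intestine, hypodermis, pharynx, muscle, neurons, sperm, oocytes, somatic gonad and coelomocytes all had counts in every group.

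Most clec genes had few or no counts in these adults. No mRNA count was found in any library for 49 members, and no small RNA count for 22. After a filter on low counts, 93 members could be tested in mRNA and 55 in small RNA, with 39 tested in both and 131 in neither. The members lay mainly on chromosomes V (82), IV (53), II (48) and I (34), with 14 on III, 3 on X and 6 without a location used here. Of those with a location, 159 stood within 20000 bases of another member, in 47 groups of neighbours.

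A few genes made up most of the family's mRNA. The members together took 0.270% to 0.379% of the gene counts of a library, and the first 3 of them held 54.8% of the summed clec CPM over all libraries. Per kb of gene span, since coding lengths were not used here, clec-87 came first with a mean of 827 CPM per kb, followed by clec-63 with 310, clec-88 with 256, clec-91 with 190, clec-47 with 140, clec-150 with 59.6, clec-1 with 53.6 and clec-50 with 50.2. The spans include introns, so these levels understate genes with long ones.

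In CPM, clec-87 had 1300.5, 1056 and 899 in MY16_Star, 996, 999.9 and 749 in MY16, 469, 873 and 745 in N2_Star, and 899.8, 687 and 839 in N2. The ranges of all 4 groups overlapped with at least 1 other. For clec-63 the libraries held 573, 449 and 463 CPM in MY16_Star, 606, 544 and 576 in MY16, 985, 596 and 465 in N2_Star, and 434, 472 and 571 in N2. The N2_Star library 1 was the highest of the 12 for clec-63, and the rest of the values lay close together.

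The summed mRNA of the family stood at 3547 ± 443 CPM in MY16_Star, 3522 ± 230 CPM in MY16, 3034 ± 436 CPM in N2_Star and 2782 ± 215 CPM in N2 (SD, n = 3 each). In small RNA the family took 0.0551% to 0.0793% of the gene counts. Its sum was 571 ± 36.1 CPM in MY16_Star, 737 ± 52.1 CPM in MY16, 676 ± 61.4 CPM in N2_Star (n = 2) and 600 ± 83.1 CPM in N2 (SD, n = 3 for the others). Abundant mRNA and abundant small RNA belonged in part to different members. The highest small RNA means were those of clec-12, clec-87, clec-238, clec-90, clec-119, clec-204, clec-91 and clec-143. Of these, clec-87, clec-90, clec-91 and clec-143 each overlap another protein-coding gene in the annotation, so reads of both may be mixed. Of the 56 members called in any comparison of either assay, 19 overlap another annotated gene.

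The gene clec-12 had 197, 157 and 130 CPM of small RNA in MY16_Star and 185, 198 and 236 CPM in MY16, against 142 and 84.8 CPM in N2_Star and 118, 75.4 and 78.6 CPM in N2, while its mRNA never passed 2.93 CPM. For clec-87 small RNA was 69.0 to 112 CPM in MY16_Star, 80.2 to 95.2 CPM in MY16, 74.5 to 77.2 CPM in N2_Star and 61.6 to 91.4 CPM in N2. The MY16 libraries of clec-12 all lay above those of N2, whereas for clec-87 the groups overlapped. Small RNA of clec-90 likewise overlapped, at 48.8 to 62.3 CPM in MY16_Star, 41.3 to 72.2 CPM in MY16, 49.7 to 56.9 CPM in N2_Star and 47.3 to 57.8 CPM in N2.

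The comparison of MY16 with N2 asked how the isolates differ. In mRNA 8 members were higher and 7 lower in MY16 among the 93 tested, at a Benjamini-Hochberg adjusted p under 0.05 in edgeR's quasi-likelihood test. That is 16.1% of the members tested, where 4.03% of all tested genes were called (1.72% higher and 2.31% lower). The higher genes were clec-165, clec-206, clec-245, clec-3, clec-222, clec-52, clec-150 and clec-227, and the lower ones clec-166, clec-97, clec-73, clec-119, clec-175, clec-210 and clec-49. The median log2 fold change over the 93 members was 0.22, against -0.02 over all genes tested. At an unadjusted p under 0.05 stood 39.8% of the members and 12.9% of all genes, and the libraries of the isolates did not overlap for 44.1% of the members and 23.9% of all genes.

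**Figure D1:**
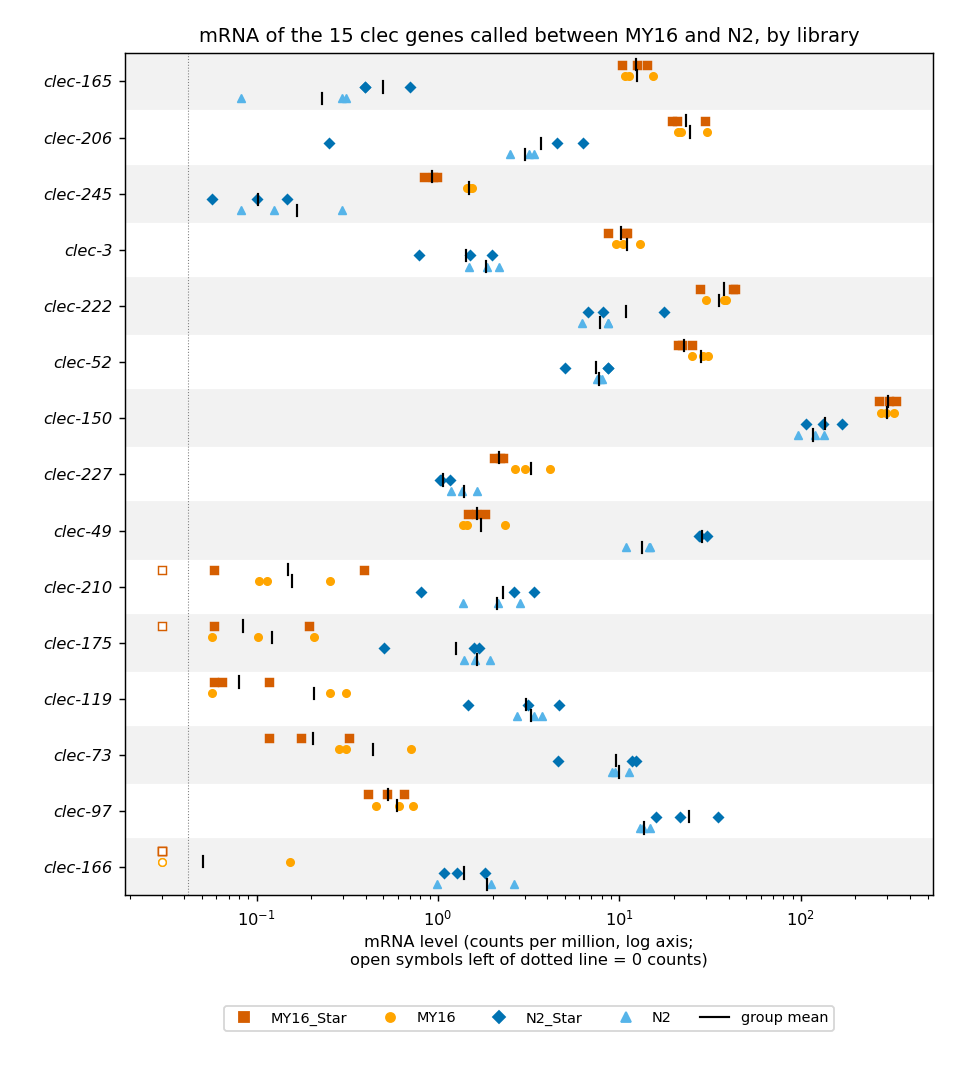
mRNA level in CPM on a log axis for each library of the 15 clec genes called between MY16 and N2, with the largest positive log2 fold change at the top. Symbols are libraries, black ticks group means, and open symbols at the left edge libraries with 0 counts. MY16_Star and MY16 lie together and apart from N2_Star and N2 in the genes at the top and at the bottom.

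Among the higher genes clec-165 (WBGene00009523, chromosome IV, 1245171 to 1246886 in WBcel235) showed the largest difference. It had 10.7, 15.3 and 11.3 CPM in MY16, against 0.312, 0.0820 and 0.296 CPM in N2. The N2 libraries stood near the level of a few counts, and no MY16 library came near them. The log2 fold change was 5.63 ± 0.40 (SE; edgeR quasi-likelihood test, Benjamini-Hochberg adjusted p = 5.64e-06). The gene overlaps F38A1.9 in the annotation, so reads of both may be mixed if counting ignored strand.

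The gene clec-206 had 21.8, 30.3 and 21.1 CPM in MY16 and 2.50, 3.36 and 3.18 CPM in N2, a log2 fold change of 3.02 ± 0.67 (SE). For clec-3 the libraries held 13.02, 9.62 and 10.5 CPM in MY16 and 1.87, 1.48 and 2.16 CPM in N2, and for clec-245 1.54, 1.48 and 1.45 CPM in MY16 and 0.125, 0.0820 and 0.296 CPM in N2. In none of these did a library of one isolate reach the range of the other. The log2 fold changes of clec-3 and clec-245 were 2.57 ± 0.32 and 2.97 ± 0.46 (SE), with edgeR adjusted p of 0.000356 and 0.00174. The call of clec-206 (edgeR adjusted p = 0.0213) was lost in 4 of the 6 fits that left out 1 library, without MY16 replicate 2 or without any of the N2 libraries.

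The genes clec-222, clec-52 and clec-150 were expressed at higher levels in both isolates. They had 38.7, 37.5 and 29.9 CPM (clec-222), 25.1, 31.0 and 28.8 CPM (clec-52) and 327, 293 and 277 CPM (clec-150) in MY16. In N2 the same genes had 8.67, 8.62 and 6.22 CPM, 7.49, 7.79 and 8.001 CPM, and 96.5, 120 and 134 CPM. All MY16 libraries lay above all N2 libraries, by log2 fold changes of 2.18 ± 0.34, 1.86 ± 0.22 and 1.35 ± 0.18 (SE; edgeR adjusted p of 0.00177, 0.000222 and 0.000592). In clec-227 MY16 had 2.67, 4.12 and 3.00 CPM and N2 1.19, 1.64 and 1.35 CPM, with a log2 fold change of 1.24 ± 0.29 (SE) at an edgeR adjusted p of 0.0291. This call was lost without MY16 replicate 2, MY16 replicate 3 or any of the N2 libraries.

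Apart from clec-49, the lower genes were near the detection limit in MY16. For clec-97 (WBGene00013931, chromosome I, 11152704 to 11154330) MY16 had 0.455, 0.611 and 0.725 CPM and N2 14.7, 13.5 and 12.95 CPM. For clec-73 (WBGene00021579, chromosome IV, 3954030 to 3956195) MY16 had 0.284, 0.713 and 0.311 CPM and N2 11.4, 9.11 and 9.40 CPM. The separation was complete in both, with log2 fold changes of -4.54 ± 0.35 and -4.43 ± 0.49 (SE; edgeR adjusted p of 8.51e-06 and 0.000127). Annotated clec-97 overlaps clec-98, another member.

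In clec-166 (WBGene00009518, chromosome IV, 1249192 to 1251342) the 3 MY16 libraries together held 3 counts and the 3 N2 libraries 100. The ratio of N2 to MY16 was 30.2, with a counting interval of 10 to 149 at 95% confidence. For clec-119 MY16 had 0.0569, 0.255 and 0.311 CPM and N2 3.37, 2.71 and 3.73 CPM, and for clec-175 MY16 had 0.0569, 0.102 and 0.207 CPM and N2 1.93, 1.39 and 1.61 CPM. MY16 values at these genes rest on a few counts each, while every N2 library stood above them. Likewise clec-210 had 0.114, 0.255 and 0.104 CPM in MY16 and 1.37, 2.13 and 2.84 CPM in N2. The log2 fold changes of clec-166, clec-119, clec-175 and clec-210 were -4.76, -4.02, -3.83 and -3.62, with edgeR adjusted p of 0.00594, 0.000931, 0.00767 and 0.0250. The call of clec-175 was lost without MY16 replicate 1 or 2, and that of clec-210 without any of the MY16 libraries or without N2 replicate 2 or 3.

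The gene clec-49, needed, as clec-39 is, for normal survival of worms on Serratia marcescens, was the lower member best expressed in MY16. It had 2.33, 1.37 and 1.45 CPM in MY16 and 10.9, 14.8 and 14.5 CPM in N2. The MY16 range lay below the N2 range, with a log2 fold change of -2.94 ± 0.25 (SE; edgeR quasi-likelihood test, Benjamini-Hochberg adjusted p = 1.87e-05).

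The 10 sperm markers, none of them at 0, had a summed mRNA of 43.2 to 65.0 CPM in MY16 and 80.1 to 90.5 CPM in N2. Their median log2 fold change was -1.08. None of the 10 was called by edgeR or by DESeq2, and 1 stood at an unadjusted p under 0.05. Among the N2_Star libraries, replicate 1 had a sperm marker sum of 51.6 CPM, against 91.4 and 92.8 CPM in the others. Of the 7 clec genes called lower in MY16, that library had the lowest N2_Star level for clec-73, clec-119, clec-175 and clec-210 and the highest for clec-97, clec-166 and clec-49. The part of sperm number in the clec differences was not tested.

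The Star groups gave a comparison of MY16_Star with N2_Star that shares no library with the one above. All 15 genes were called in the same direction there, where 86.7% of the 563 genes called between MY16 and N2 were. Both comparisons came from 1 fit of the 4 groups, with a shared estimate of the spread. In a fit of the Star groups alone the calls of clec-206 and clec-227 were lost. For clec-165 MY16_Star had 10.3, 12.6 and 14.2 CPM and N2_Star 0.704, 0.397 and 0.393 CPM. For clec-97 MY16_Star had 0.524, 0.411 and 0.647 CPM and N2_Star 35.0, 21.7 and 15.9 CPM. For clec-166 MY16_Star had 0 counts in every library and N2_Star 81 counts in all, at least 7.64-fold lower in MY16_Star at 3 counts per library. In each of these the libraries lay apart by isolate, as they did without Star.

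In all, 18 members were higher and 21 lower in MY16_Star than in N2_Star among the 93 tested (edgeR quasi-likelihood test, Benjamini-Hochberg adjusted p under 0.05). That is 41.9% of the members, where 22.5% of all tested genes were called (7.69% higher and 14.8% lower). A fit of these groups alone called 8 higher and 9 lower. Without MY16_Star replicate 2 there were 17 higher and 8 lower, so that 13 of the 21 lower calls were lost. The groups did not overlap for 51.6% of the members and 36.7% of all genes. The 10 higher genes not called between MY16 and N2 were clec-265, clec-17, clec-204, clec-170, clec-41, clec-10, clec-173, clec-91, clec-56 and clec-88. The 14 lower ones were clec-78, clec-153, clec-180, clec-145, clec-266, clec-151, clec-142, clec-123, clec-190, clec-146, clec-264, clec-218, clec-83 and clec-48.

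Among the higher of these, clec-41, whose overexpression raises resistance to Bacillus thuringiensis, had 94.2, 64.4 and 66.5 CPM in MY16_Star and 27.1, 35.9 and 29.6 CPM in N2_Star. For clec-88 MY16_Star had 449, 420 and 355 CPM and N2_Star 181, 301 and 266 CPM, and for clec-91 MY16_Star had 308, 213 and 198 CPM and N2_Star 118, 160 and 129 CPM. The groups did not overlap in any of the 3. Their log2 fold changes were 1.28 ± 0.26, 0.71 ± 0.18 and 0.82 ± 0.19 (SE), with edgeR adjusted p of 0.00779, 0.0186 and 0.0146. The calls of clec-88 and clec-91 were lost without MY16_Star replicate 1, and that of clec-41 was kept without any 1 library. Both clec-88 and clec-91 overlap another protein-coding gene in the annotation.

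Markers of several tissues were called in this comparison, where 7.69% of all tested genes were called higher and 14.8% lower. Of the 7 oocyte markers 5 were called higher in MY16_Star by the same test, and their summed mRNA was 8618 to 11100 CPM in MY16_Star and 3932 to 6580 CPM in N2_Star. Markers called lower in MY16_Star were 3 of 10 for sperm, 2 of 6 for body wall muscle, 2 of 8 for neurons, 1 of 6 for hypodermis, 1 of 5 for pharynx and 1 of 3 for coelomocytes, with none higher. Of 4 somatic gonad markers 0 were called. The sums were 43.96 to 51.8 CPM in MY16_Star and 51.6 to 92.8 CPM in N2_Star for sperm, and 1260 to 2145 CPM in MY16_Star and 1998 to 2817 CPM in N2_Star for muscle. They were 242 to 295 CPM in MY16_Star and 284 to 315 CPM in N2_Star for neurons. For hypodermis the sums overlapped, at 1011 to 1333 CPM in MY16_Star and 865 to 1240 CPM in N2_Star. So did those for pharynx, at 43.8 to 103 CPM in MY16_Star and 36.6 to 126 CPM in N2_Star. The called hypodermis and pharynx markers, dpy-7 and ceh-22, had 42.2 and 3.12 CPM in N2_Star replicate 1. In N2_Star replicates 2 and 3 dpy-7 had 2.72 and 2.07 CPM and ceh-22 0.737 and 0.492 CPM. Of the 13 intestine markers 1 was called higher and 1 lower. The 13 summed to 39700 to 44170 CPM in MY16_Star and 47880 to 63670 CPM in N2_Star, which do not overlap. Most of this sum came from the yolk protein genes vit-2 and vit-6. Without them, the other 11 summed to 3321 to 3711 CPM in MY16_Star and 2864 to 3381 CPM in N2_Star. No marker was at 0 in either group, and the part of tissue proportions in the clec calls was not tested.

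Several of the lower genes were high in N2_Star replicate 1. That library was the highest of the 12 for 26 of the 93 members and the lowest for 18. For clec-78 (WBGene00018547, chromosome IV) MY16_Star had 1.28, 0.999 and 1.68 CPM and N2_Star 32.1, 4.59 and 3.44 CPM, and for clec-145 MY16_Star had 0.815, 0.823 and 0.582 CPM and N2_Star 9.61, 3.06 and 2.07 CPM. For clec-218 MY16_Star had 21.1, 21.2 and 18.96 CPM and N2_Star 110.1, 32.3 and 38.7 CPM. Replicate 1 was the extreme in all 3, and the other 2 N2_Star libraries still lay above MY16_Star. The calls of clec-78 and clec-145 were lost without MY16_Star replicate 2, and that of clec-218 without any of the MY16_Star libraries or N2_Star replicate 1. The same library held 42.2 CPM of the hypodermal collagen gene dpy-7, which is most active before molts, against 2.72 and 2.07 CPM in the other N2_Star libraries, and its part in these values was not tested. Without it, 40 members were called. The annotation places 7 other gene entries over clec-78.

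The comparisons of each Star group with the isolate it is named after asked what the Star label goes with. In mRNA no member was called between MY16_Star and MY16 (0 of 93 by the edgeR quasi-likelihood test, 3 at an unadjusted p under 0.05, 0 by DESeq2), where 0.0215% of all genes were called. The 3, or 3.23% of the members against 4.43% of all genes, were clec-12, clec-223 and clec-47. For clec-47 MY16_Star had 57.3, 78.4 and 70.5 CPM and MY16 92.3, 107 and 118 CPM, so that the libraries did not overlap, but the edgeR adjusted p was 0.873. There was no overlap for 11.8% of the members and 10.7% of all genes.

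Between N2_Star and N2 no member was called in mRNA either (0 of 93 by edgeR), where 0.150% of all genes were called. However, 20 members stood at an unadjusted p under 0.05, or 21.5% of the members against 12.1% of all genes, and DESeq2 called 8, where it called 2.72% of all genes. These 8 were clec-78, clec-266, clec-180, clec-196, clec-145, clec-146 and clec-49 with higher mean levels in N2_Star, and clec-204 with a lower one. For clec-49 N2_Star had 30.4, 27.6 and 27.8 CPM and N2 10.9, 14.8 and 14.5 CPM, a log2 fold change of 1.10 ± 0.22 (SE) at an edgeR adjusted p of 0.0800 and a DESeq2 adjusted p of 0.000161. For clec-266 N2_Star had 45.8, 33.1 and 17.6 CPM and N2 7.36, 4.18 and 9.44 CPM, a log2 fold change of 2.19 ± 0.47 (SE) at an edgeR adjusted p of 0.0854 and a DESeq2 adjusted p of 0.000384. The N2_Star libraries lay above all N2 libraries in both genes, and DESeq2 and the main edgeR fit differed on the call. The libraries of these groups did not overlap for 18.3% of the members and 18.95% of all genes.

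For clec-78 N2_Star had 32.1, 4.59 and 3.44 CPM and N2 0.998, 0.738 and 1.14 CPM (edgeR adjusted p = 0.0824). For clec-180 N2_Star had 6.29, 2.83 and 5.26 CPM and N2 0.562, 0.738 and 0.847 CPM, and for clec-204 N2_Star had 0.503, 1.36 and 1.03 CPM and N2 2.93, 1.97 and 2.29 CPM. None of these overlapped, yet each missed the threshold in the main edgeR fit. The 3 genes clec-145, clec-146 and clec-196 also had all N2_Star libraries above all N2 libraries, with edgeR adjusted p of 0.160, 0.156 and 0.162. With no filter on low counts, edgeR called clec-78, clec-180, clec-266 and clec-49 higher in N2_Star (adjusted p of 0.00764, 0.0443, 0.0133 and 0.0431). With the replicate number as a block, it called clec-146 and clec-190 higher (adjusted p of 0.043 and 0.0302).

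**Figure D2:**
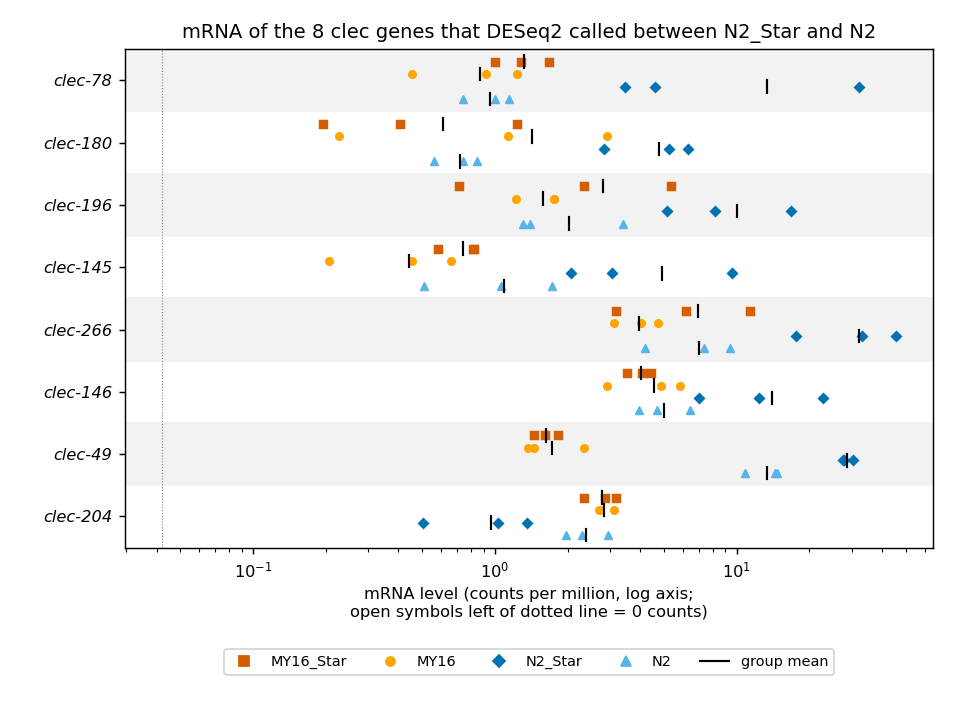
mRNA level in CPM on a log axis for each library of the 8 clec genes that DESeq2, but not the main edgeR fit, called between N2_Star and N2. Symbols are libraries and black ticks group means. N2_Star replicate 1 is the N2_Star library at 32.1 CPM in clec-78, far above the others of its group.

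Whether the Star difference was unlike in the isolates was tested as an interaction, which sets the log2 fold change of MY16_Star over MY16 against that of N2_Star over N2. In mRNA 0 of 93 members were called by edgeR where 0.00% of all genes were called. At an unadjusted p under 0.05 stood 8 members, or 8.6%, against 13.1% of all genes. DESeq2 called 1 member, clec-180, where it called 0.619% of all genes, with an adjusted p of 0.0468, against an edgeR adjusted p of 0.312.

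In small RNA, too, members differed between the isolates in both directions. Of the 55 members tested, 18 were higher and 6 lower in MY16 than in N2 (edgeR quasi-likelihood test, Benjamini-Hochberg adjusted p under 0.05). That is 43.6% of the members, where 18.6% of all tested genes were called (8.55% higher and 10% lower). Without MY16 replicate 3 the counts were 11 higher and 5 lower, and with no filter on low counts 19 higher and 12 lower. The libraries of the isolates did not overlap for 47.3% of the members and 33.2% of all genes. The higher genes were clec-75, clec-68, clec-72, clec-74, clec-170, clec-67, clec-21, clec-71, clec-204, clec-146, clec-208, clec-84, clec-48, clec-171, clec-150, clec-50, clec-145 and clec-12. The lower ones were clec-238, clec-29, clec-125, clec-166, clec-147 and clec-119. The median log2 fold change over the 55 members was 0.20, against -0.00287 over all genes tested.

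**Figure D3:**
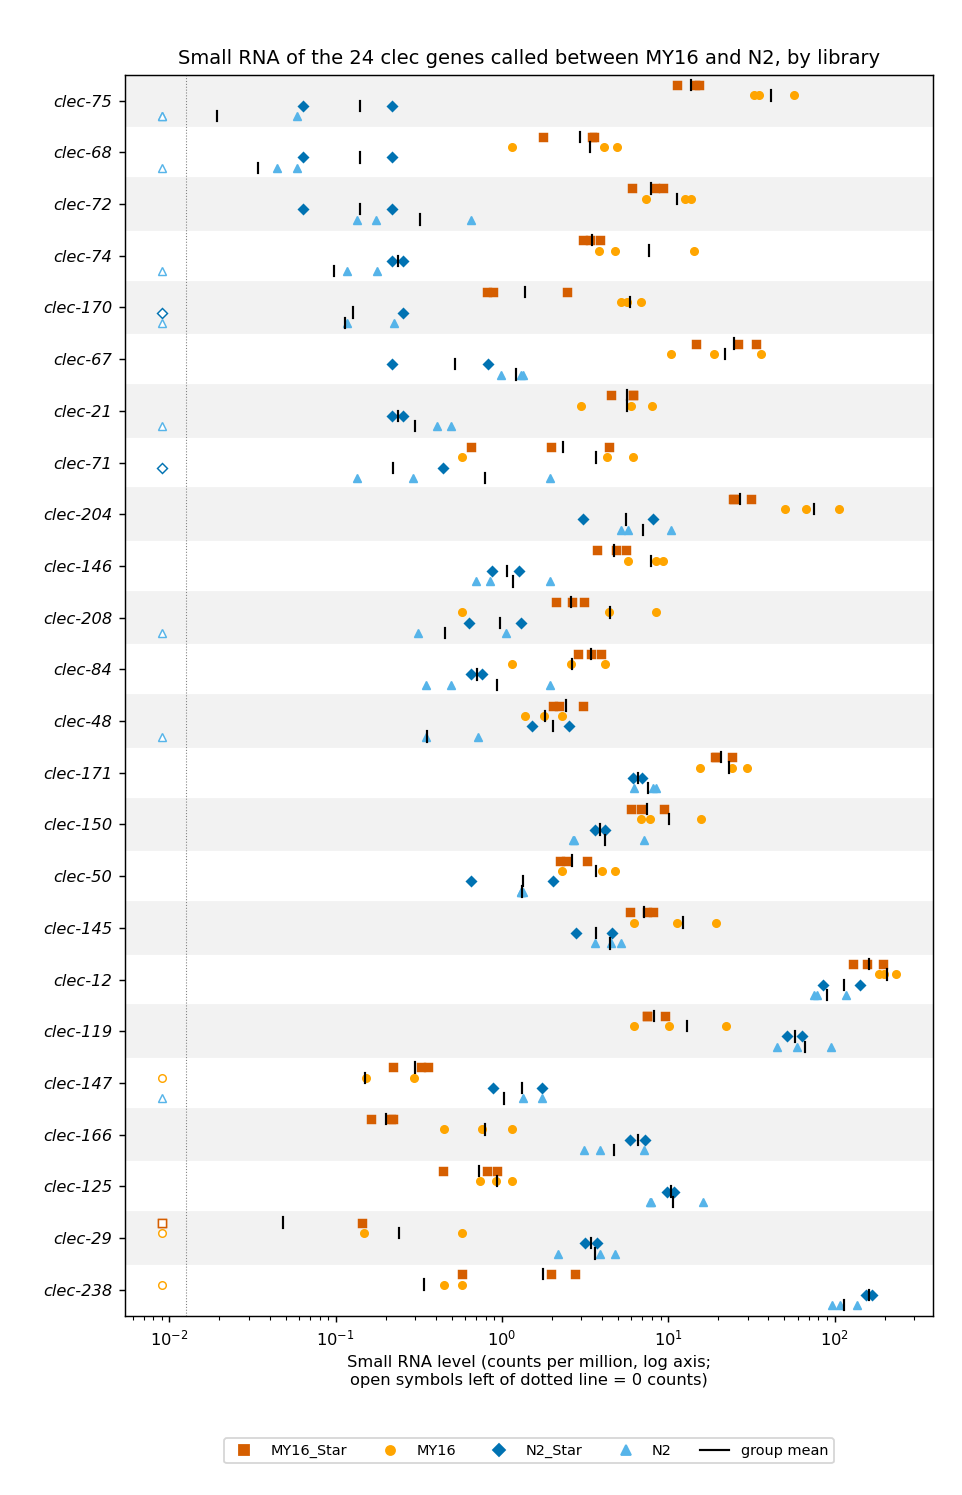
Small RNA level in CPM on a log axis for each library of the 24 clec genes called between MY16 and N2, with the largest positive log2 fold change at the top. Symbols are libraries, black ticks group means, and open symbols at the left edge libraries with 0 counts. In clec-75 MY16 had 551 counts in all and N2 1 count, and in clec-238 the order is the opposite.

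Small RNA of clec-75 (WBGene00021586, chromosome IV, 3960734 to 3962846) was 57.3, 32.7 and 35.2 CPM in MY16, against 0.0584, 0 and 0 CPM in N2. The counts summed to 551 in MY16 and 1 in N2, a ratio of 1510 with a counting interval of 269 to 59600 at 95% confidence. The next largest, clec-68, had 1.15, 4.12 and 4.90 CPM in MY16 and 0.0584, 0.0446 and 0 CPM in N2. These genes thus had small RNA counts in every MY16 library and almost none in N2.

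For clec-72 MY16 had 13.8, 7.33 and 12.6 CPM and N2 0.175, 0.134 and 0.649 CPM. For clec-74 MY16 had 14.3, 3.82 and 4.75 CPM and N2 0.117, 0.178 and 0 CPM, and for clec-67, a gene induced by bacterial infection, MY16 had 10.3, 18.9 and 36.2 CPM and N2 0.992, 1.34 and 1.30 CPM. No MY16 library of these 3 came near the N2 range. Their log2 fold changes were 5.84 ± 0.54, 5.50 ± 0.68 and 4.23 ± 0.53 (SE; edgeR adjusted p of 1.22e-05, 0.000125 and 0.000146).

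Together with clec-71, the genes clec-67, clec-68, clec-72, clec-74 and clec-75 are neighbours on chromosome IV. They lie in a stretch of 12 members between 3922165 and 4014235, which includes clec-73 and clec-78. Of the 8 tested there in small RNA, 6 were higher in MY16 and 0 lower, while of the 8 tested in mRNA clec-73 was lower and none was higher. Of all genes tested, 8.55% were higher in small RNA and 2.31% lower in mRNA. The stretch was 1 of the 47 groups of neighbours. Similar neighbours may share small RNA reads, so these calls may not be separate, which was not tested. The mRNA of clec-67 was 1.71, 1.43 and 1.97 CPM in MY16 and 1.81, 2.79 and 3.05 CPM in N2, and that of clec-75 was 0.625, 0.865 and 0.621 CPM in MY16 and 0.187, 0.164 and 0 CPM in N2. Neither passed the test (edgeR adjusted p of 0.560 and 0.261), and the clec-75 groups did not overlap. Small RNA of clec-71 had 0.573, 6.11 and 4.31 CPM in MY16 and 0.292, 0.134 and 1.95 CPM in N2, which overlap, and its call was lost in 4 of 6 fits that left out 1 library, without MY16 replicate 2 or 3 or without N2 replicate 1 or 2.

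**Figure D4:**
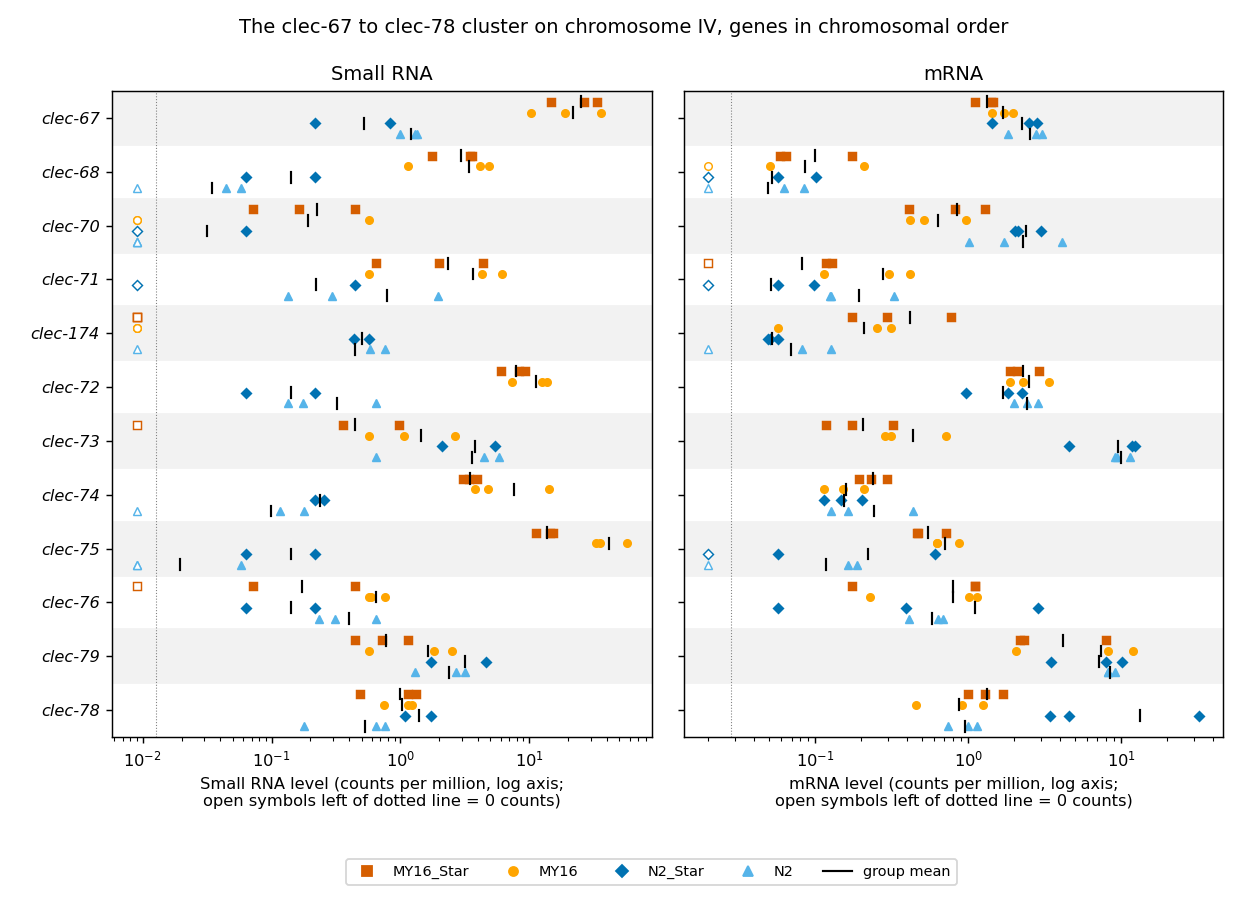
Small RNA (left) and mRNA (right) in CPM on log axes for each library of the 12 clec genes between clec-67 and clec-78 on chromosome IV, in chromosomal order from the top. Symbols are libraries, black ticks group means, and open symbols libraries with 0 counts. In the left panel MY16_Star and MY16 lie far to the right of N2_Star and N2 in clec-67, clec-68, clec-72, clec-74 and clec-75, and in the right panel far to the left in clec-73.

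The gene clec-170, which lies on chromosome IV in the stretch of clec-165 and clec-166, had 6.88, 5.19 and 5.64 CPM of small RNA in MY16 and 0.117, 0.223 and 0 CPM in N2. On chromosome V clec-204 had 107, 50.6 and 67.6 CPM in MY16 and 5.72, 10.3 and 5.19 CPM in N2, and on chromosome II clec-21 had 8.03, 5.96 and 2.97 CPM in MY16 and 0.409, 0.490 and 0 CPM in N2. The isolates did not overlap in any of them. The log2 fold changes were 5.03 ± 0.69, 3.29 ± 0.39 and 3.65 ± 0.52 (SE), with edgeR adjusted p of 0.000272, 9.16e-05 and 0.000350. The neighbours clec-145 and clec-146 on chromosome II were both higher in MY16, clec-146 with 5.73, 9.32 and 8.47 CPM in MY16 and 0.701, 0.847 and 1.95 CPM in N2.

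The other higher genes had log2 fold changes from 1.18 ± 0.25 (SE) in clec-12 to 3.00 ± 0.77 (SE) in clec-208. Of these, clec-48, clec-50, clec-84, clec-145, clec-150 and clec-208 each lost their calls in 2 to 5 of the 6 fits that left out 1 library. In clec-208, for instance, MY16 had 0.573, 4.43 and 8.47 CPM and N2 1.05, 0.312 and 0 CPM. Its groups overlap, and the call was lost without MY16 replicate 3 or N2 replicate 2. The calls of clec-171 and clec-12 were kept in every such fit.

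Among the lower genes clec-238 (WBGene00013622, chromosome V, 16951804 to 16953629) had 0.573, 0 and 0.446 CPM of small RNA in MY16 and 137, 96.2 and 108 CPM in N2. Its log2 fold change was -8.66 ± 0.59 (SE; edgeR quasi-likelihood test, Benjamini-Hochberg adjusted p = 1.48e-06). Its mRNA, which was not tested, was 0.125, 0.246 and 0.254 CPM in N2, with 0 counts in every MY16 and MY16_Star library. Small RNA was thus abundant in N2 at a gene with few mRNA counts. For clec-125 MY16 had 1.15, 0.916 and 0.743 CPM and N2 7.88, 7.80 and 16.2 CPM, and for clec-119 MY16 had 22.4, 10.1 and 6.24 CPM and N2 59.4, 45.1 and 94.8 CPM. Neither overlapped between the isolates, with log2 fold changes of -3.49 ± 0.44 and -2.49 ± 0.40 (SE; edgeR adjusted p of 0.000152 and 0.000995). A piRNA gene, 21ur-12864, lies within the annotated clec-119.

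For clec-29 the MY16 libraries held 2 counts in all and N2 137, a ratio of N2 to MY16 of 25.0 with a counting interval of 6.80 to 209 at 95% confidence. For clec-166 MY16 had 1.15, 0.764 and 0.446 CPM and N2 7.12, 3.12 and 3.90 CPM, with a log2 fold change of -2.78 ± 0.49 (SE) at an edgeR adjusted p of 0.00186. The sixth, clec-147, had 0, 0.153 and 0.297 CPM in MY16 and 1.75, 1.34 and 0 CPM in N2. It overlapped at 0, and its call (edgeR adjusted p = 0.0471) was lost by DESeq2 and without any of the MY16 libraries or N2 replicate 2.

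Of the 39 members tested in both assays, 3 were called in both between MY16 and N2, 1 in mRNA alone, 12 in small RNA alone and 23 in neither. The 3 moved the same way in each assay, with clec-166 and clec-119 lower in MY16 and clec-150 higher. Small RNA of clec-150 was 6.88, 7.79 and 15.7 CPM in MY16 and 2.69, 2.72 and 7.14 CPM in N2. The highest N2 library lay within the MY16 range, and the call was lost without MY16 replicate 3, N2 replicate 1 or N2 replicate 2. Of the 15 genes called in mRNA 11 were not tested in small RNA, and of the 24 called in small RNA 9 were not tested in mRNA.

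**Figure D5:**
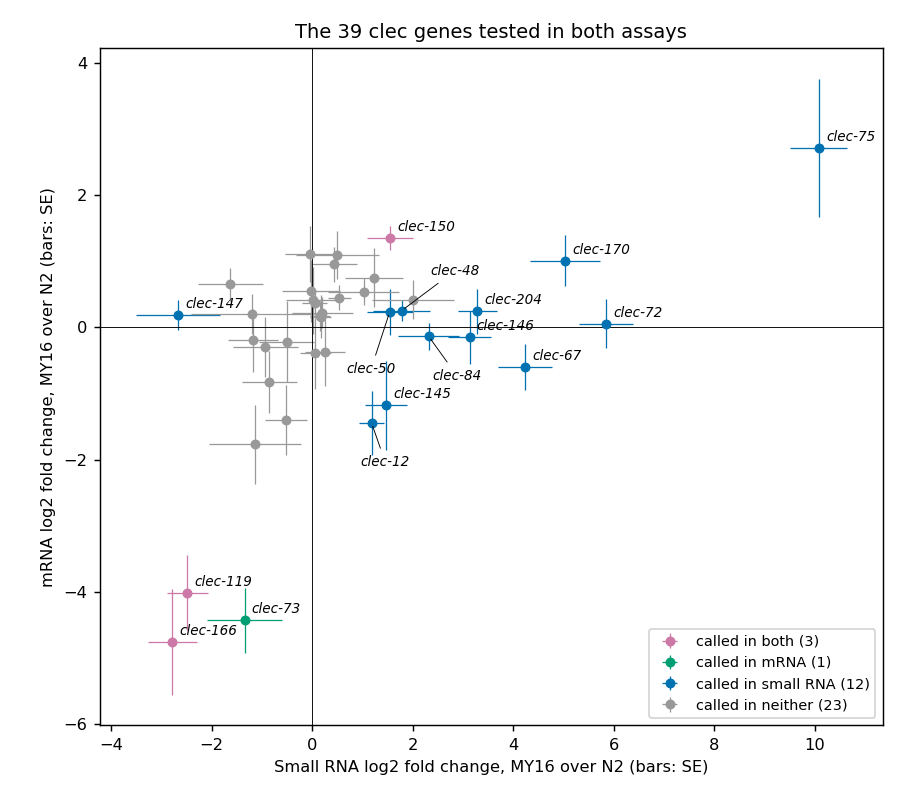
log2 fold change of MY16 over N2 in mRNA (vertical axis) and in small RNA (horizontal axis) for the 39 clec genes tested in both assays, with bars of 1 SE. Colours give the assay in which a gene was called, and called genes are named. Among the genes furthest to the right, clec-72 lies near 0 in mRNA, clec-67 somewhat below it, and clec-75 and clec-170 above it. The genes clec-73, clec-119 and clec-166 lie at the lower left.

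The comparison of MY16_Star with N2_Star in small RNA called 11 members higher and 8 lower among the 55 tested (edgeR quasi-likelihood test, Benjamini-Hochberg adjusted p under 0.05). That is 34.5% of the members, where 14.5% of all tested genes were called (5.82% higher and 8.66% lower). Without N2_Star replicate 1 the counts were 6 higher and 6 lower. The groups did not overlap for 72.7% of the members and 50.3% of all genes. Of the 24 genes called between MY16 and N2, 16 were called here in the same direction, which is 66.7% of that list and 84.2% of this one, and for all genes the shares were 63.3% and 81.0%. The genes called here alone were clec-73, clec-63 and clec-41, all lower in MY16_Star. Tissue markers called lower in small RNA of MY16_Star were 2 of 8 for intestine, 1 of 4 for body wall muscle and 1 of 1 for pharynx. Called higher were 1 of 9 for sperm and 1 of 5 for neurons. Whether the clec calls share a cause with these was not tested.

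For clec-75 MY16_Star had 11.2, 15.3 and 14.5 CPM and N2_Star 0.0635 and 0.218 CPM, and the counts summed to 353 and 2, a ratio of 146 with a counting interval of 40.2 to 1210 at 95% confidence. For clec-238 MY16_Star had 1.98, 0.576 and 2.77 CPM and N2_Star 168 and 155 CPM. For clec-67 MY16_Star had 14.7, 26.4 and 33.8 CPM and N2_Star 0.825 and 0.218 CPM. The order of the isolates was thus the one seen without Star in all 3.

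For clec-63 MY16_Star had 0, 0.864 and 1.14 CPM and N2_Star 4.82 and 3.49 CPM, and for clec-41 MY16_Star had 1.54, 2.88 and 2.77 CPM and N2_Star 9.14 and 5.45 CPM. For clec-73 MY16_Star had 0, 0.360 and 0.976 CPM and N2_Star 2.09 and 5.45 CPM. The groups did not overlap, with log2 fold changes of -2.51 ± 0.63, -1.59 ± 0.48 and -2.94 ± 0.90 (SE; edgeR adjusted p of 0.0198, 0.0453 and 0.0494). The clec-41 call was lost without any 1 library, that of clec-63 without MY16_Star replicate 2 or N2_Star replicate 1, and that of clec-73 without MY16_Star replicate 1 or 2 or either N2_Star library.

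Between MY16_Star and MY16, small RNA of clec-75 was the single call, 1 lower among 55 tested, where 1.02% of all genes were called (0.449% lower). MY16_Star had 11.2, 15.3 and 14.5 CPM and MY16 57.3, 32.7 and 35.2 CPM. Every MY16_Star library lay below every MY16 library, with a log2 fold change of -1.58 ± 0.30 (SE; edgeR quasi-likelihood test, Benjamini-Hochberg adjusted p = 0.0277). The labels give no pairing, but same-numbered libraries of these groups correlated weakly (0.117 to 0.364). With the replicate number as a block, the edgeR adjusted p was 0.0671. Without the block, it ran from 0.0577 to 0.130 when 1 library at a time was left out.

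Next by p-value were clec-204 and clec-170, both among the genes with more small RNA in MY16 than in N2. For clec-204 MY16_Star had 24.6, 31.3 and 24.7 CPM and MY16 107, 50.6 and 67.6 CPM (edgeR adjusted p = 0.113, DESeq2 adjusted p = 0.00756). For clec-170 MY16_Star had 0.880, 2.45 and 0.813 CPM and MY16 6.88, 5.19 and 5.64 CPM (edgeR adjusted p = 0.185). In clec-238 the MY16_Star libraries, at 1.98, 0.576 and 2.77 CPM, lay above those of MY16, at 0.573, 0 and 0.446 CPM (edgeR adjusted p = 0.379). All 3 had groups that did not overlap, and none passed the edgeR threshold. In clec-238 the groups were barely apart, since the 0.573 CPM of MY16 replicate 1 was 1 count in a shallow library. In 13 of the 55 members, or 23.6%, these groups did not overlap, against 14.2% of all genes.

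Between N2_Star and N2, 0 of 55 members were called in small RNA by edgeR, 0 by DESeq2 and 4 (7.27%) at an unadjusted p under 0.05. Of all genes 0.0245% were called by edgeR and 2.71% stood at an unadjusted p under 0.05. The libraries of these groups did not overlap for 23.6% of the members and 15.5% of all genes. The interaction likewise gave 0 of 55 by edgeR, 0 by DESeq2 and 3 (5.45%) at an unadjusted p under 0.05, where 0.368% of all genes were called and 4.26% stood at that p. The smallest adjusted p of a member was 1 between N2_Star and N2, and 0.646, that of clec-63, in the interaction.

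Members with a known part in responses to bacteria were looked at by name. In mRNA clec-60, induced by Staphylococcus aureus, had at most 12 counts in a group and was not tested, and likewise its neighbour clec-61, at most 29. No mRNA library held a count of clec-38, and clec-39 had 1 mRNA count in all. Small RNA of clec-38 did not pass the filter, with 18 and 3 counts in N2_Star and 16, 16 and 2 in N2. MY16_Star had 0, 0 and 1 counts of it and MY16 had 0 in every library. With no filter on low counts, edgeR called it lower in MY16 than in N2 (adjusted p = 0.00531). For mRNA of clec-85, a target of PMK-1 signalling, MY16 had 32.7, 26.2 and 34.9 CPM and N2 14.7, 20.3 and 24.6 CPM. The groups did not overlap, but the log2 fold change of 0.65 ± 0.25 (SE) missed the threshold (edgeR adjusted p = 0.274).

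For clec-41 MY16 had 113, 72.3 and 74.4 CPM and N2 31.1, 41.1 and 61.8 CPM (edgeR adjusted p = 0.0704, DESeq2 adjusted p = 0.0162). For clec-66 MY16 had 22.3, 15.9 and 25.9 CPM and N2 6.36, 9.52 and 14.0 CPM, and for clec-4 MY16 had 4.15, 4.12 and 8.18 CPM and N2 1.25, 2.95 and 3.30 CPM. In these 3 genes every MY16 library lay above every N2 library, and the edgeR adjusted p of clec-66 and clec-4 were 0.164 and 0.253. For clec-7, clec-17 and clec-86 the adjusted p were 0.956, 0.825 and 0.198, and clec-42, with 19 counts in MY16 and 3 in N2, was not tested.

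Other immune effectors and regulators were counted as whole lists, beside the 4.03% of all genes called in mRNA between MY16 and N2. Of 12 lysozymes tested 1 was higher, lys-7, with a log2 fold change of 1.66 ± 0.26 (SE). Of 24 infection response genes irg-6 and K08D8.5 were higher and asp-12 lower. Of 27 saposin-like and caenacin peptides, 12 galectins and 33 regulators of immunity edgeR called 0 in each list, DESeq2 1, 1 and 0, and 4, 1 and 1 stood at an unadjusted p under 0.05. Between MY16_Star and N2_Star, where 22.5% of all genes were called, 2 lysozymes were called higher and 0 lower. There 1 peptide was higher and 7 lower, 1 galectin higher and 2 lower, 3 infection response genes higher and 5 lower, and 0 regulators higher and 5 lower. In small RNA 2 of 27 regulators were higher and 3 lower in MY16 than in N2, where 18.6% of all genes were called. Among them was zip-2, a transcription factor of the response to Pseudomonas aeruginosa, at -6.72 ± 0.25 (log2 fold change, SE). The differences between these lists and the clec genes were not tested.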

How the data were processed

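Deposited values were whole-number counts per gene, made by the authors. The submitters' processing notes name cutadapt, FastQC, Bowtie2, HTSeq, DESeq2 and the build ce11; versions, annotation and strand setting are not given in the sources used here. Per the labels' protocols both assays used a small RNA library kit. The name of the small RNA table holds the letters AS, read here as antisense. Lines naming no gene (7.84% to 17.7% of mRNA and 38.7% to 46.6% of small RNA counts) were left out. Reads of low alignment quality were 5.37% to 9.28% of mRNA counts and 0.00% of small RNA counts, so similar clec genes may share small RNA reads.

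Symbols and coordinates (1-based) came from RefSeq WBcel235, which matched 44017 IDs and in which 27 of 264 clec symbols, 25 of them pseudogenes, had no ID and were not analysed here. Sequences, coding lengths and motifs were not used here.

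The 4 groups of an assay entered 1 fit in edgeR 4.0.16 (limma 3.58.1, R 4.3.3) with TMM, filterByExpr (13983 mRNA and 12241 small RNA genes), glmQLFit and glmQLFTest. Benjamini-Hochberg adjustment covered every gene tested in a contrast, and calls were made under 0.05. SE is the log2 fold change over the square root of F. Steps were tested on simulated data. Fitted changes against groups of a few counts depend on the prior count. Intervals (exact binomial, 95%) and floors of 3 counts cover counting error only. Alternatives were DESeq2 1.42.0, its size factors, no filter, the replicate block, fits of 2 groups and leaving out each library. Same-numbered libraries correlated above 0.1 in every pair, and were taken as paired, for small RNA of MY16_Star and MY16 alone (0.117 to 0.364).

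Named were all called members, the 10 largest changes each way and the 8 highest levels with values per library, and members with a published role. Members and lists were chosen with earlier results of these data known.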

Additional observations from a re-analysis of the deposited data

How the results depend on the processing

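Of the 98 calls of single clec genes, 53 were kept under every alternative run, and over 1052 refits 161 lost the call and 0 reversed. Counts within 1.5 times were found in mRNA and small RNA for MY16 against N2 under every alternative. In mRNA, N2_Star against N2 gave 8 calls by DESeq2, 4 with no filter and 2 with the replicate block, MY16_Star against N2_Star gave 17 in a fit of the 2 groups alone, and the interaction gave 1 by DESeq2. In small RNA, MY16_Star against MY16 gave 2 by DESeq2, 4 with no filter, 0 with the replicate block and 0 with that block in a fit of the 2 groups alone (a setting chosen after seeing the data), and MY16_Star against N2_Star gave 31 with no filter. The causes were not tested. Leaving out 1 library at a time, mRNA counts ran from 11 to 13 (MY16 against N2), 0 to 1 (N2_Star against N2), 25 to 40 (MY16_Star against N2_Star) and 0 to 0 (MY16_Star against MY16, and the interaction), and small RNA counts from 16 to 23, 0 to 0, 12 to 17 and 0 to 0 (MY16 against N2, MY16_Star against MY16, MY16_Star against N2_Star, and both N2_Star against N2 and the interaction). In the other comparisons not every same-numbered pair correlated above 0.1, so those libraries were not taken as paired. In mRNA the correlations ran from -0.00574 to 0.531 for MY16_Star and MY16. They ran from -0.1436 to 0.1935 for MY16 and N2, and from -0.176 to 0.351 for MY16_Star and N2_Star. Whether libraries of the same number share an effect was not tested. The replicate block gave 18 mRNA calls for MY16 against N2. Depth was lowest in small RNA of MY16 replicate 1 and N2 replicate 3, with 1961627 and 1778321 counts.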
